A study of Mus musculus with 16 samples.

Results

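The genes described here are 41 genes of fatty acid oxidation, ketone body metabolism and the Ppara programme, out of 24984 genes counted in whole kidney and whole liver of aged mice. They were taken as a list of names, with no threshold on a measured value, although earlier results of these data were known when the list was made. They comprise 3 regulators of transcription, 3 genes for uptake, binding and activation of fatty acids, 4 of the carnitine shuttle, 4 acyl-CoA dehydrogenases, and 3 genes of the electron transfer flavoprotein system. The list goes on with 4 genes for the last steps of the mitochondrial spiral, 3 for unsaturated chains, 5 peroxisomal genes, 2 ketone body enzymes, 4 acyl-CoA thioesterases, 2 lipid droplet proteins and 4 further Ppara targets. After removal of genes with few reads, 41 of 41 were tested in the liver and 40 of 41 in the kidney, where the hormone gene Fgf21 was left untested with 0 to 2 counts per library.

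Fatty acids enter the cell, are bound and activated to acyl-CoA, and cross into mitochondria on carnitine, where a spiral of dehydrogenation, hydration, a second dehydrogenation and thiolysis shortens the chain and passes electrons through the electron transfer flavoprotein to the respiratory chain. Peroxisomes shorten very long and branched chains, thioesterases release free acids from acyl-CoA, and the liver turns surplus acetyl-CoA into ketone bodies for other organs. Ppara is the nuclear receptor that drives many of these genes during fasting, and both the kidney proximal tubule and the hepatocyte rely on fat as fuel.

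The study injected female C57BL/6 wild-type mice, labelled 24 months old, through the tail vein with adeno-associated virus of serotype 8 carrying either a short hairpin RNA against Fos (shFos group) or a non-targeting hairpin (NT group), and kidney and liver were taken 3 months later. Fos encodes a subunit of the AP-1 transcription factor, and the comparison asks what its knockdown does in aged organs. Each tissue had 4 NT and 4 shFos libraries of total RNA, so every group carried a virus and a hairpin, and no uninjected mouse was among the 16 libraries. The promoter of the hairpin and the cells it reached are not given in the sources used here, and each library is a mixture of the cell types of the organ, so that fewer cells of a type and less RNA per cell cannot be told apart.

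Fos itself measured 6.71, 5.26, 4.23 and 5.29 CPM (reads on a gene per 1e6 counted reads, scaled between the libraries of a tissue) in kidney NT replicates 1 to 4 and 2.57, 4.12, 3.93 and 2.30 in kidney shFos replicates 1 to 4. The groups did not overlap, with a log2 fold change of -0.73 ± 0.25 (SE; adjusted p = 0.0955 with edgeR and 0.0425 with DESeq2). In the liver Fos measured 1.12, 2.37, 3.70 and 2.86 CPM in NT and 1.63, 1.50, 2.76 and 1.38 CPM in shFos, the groups overlapped, and the log2 fold change was -0.47 ± 0.38 (adjusted p = 0.778). The libraries held 14194543 to 15534665 counted reads in the kidney and 16652150 to 18300277 in the liver, of which the 41 genes took 0.952% ± 0.131 (SD, n = 4) in kidney NT, 0.952% ± 0.0401 in kidney shFos, 0.966% ± 0.239 in liver NT and 1.09% ± 0.178 in liver shFos. Hepatocyte markers summed to 49438 to 194117 CPM in the liver and 351 to 1317 CPM in the kidney, while markers of the distal nephron summed to 7803 to 10796 CPM in the kidney and 0.462 to 5.19 CPM in the liver. NT replicate 4 stood apart in both tissues, and fold changes that turned or moved much without it are given both ways. Nothing in the labels says how the replicates of a group relate beyond their numbers, and p-values measure the spread between these samples.

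In the aged kidney, the genes with the smallest p of shFos against NT were Etfdh, Acat1 and Etfa, each with a higher mean in shFos. No change passed the test: 0 of 40 genes had an edgeR adjusted p under 0.05, and over all 14892 genes tested the share was 0%. At an unadjusted p under 0.05 there were 7 of 40, against 31.9% of all genes, a smaller share than over all genes. Of the 7, Etfdh, Acat1, Etfa, Hadh, Acot4 and Hadhb were higher in shFos (17.1% of all genes) and Acaa1a was lower (14.8% of all genes). The median log2 fold change was 0.01 over the 40 genes and 0.00 over all genes, with 21 genes above zero and 19 below. DESeq2 called 4 of these genes, all higher in shFos, against 19.7% of all genes: Acat1 (adjusted p = 0.00320), Etfdh (0.00484), Etfa (0.0160) and Hadh (0.0499). The groups did not overlap in 1 gene, Acat1, which was higher (9.16% of all genes did so), and in none that was lower (8.04% of all genes).

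**Figure D1:**
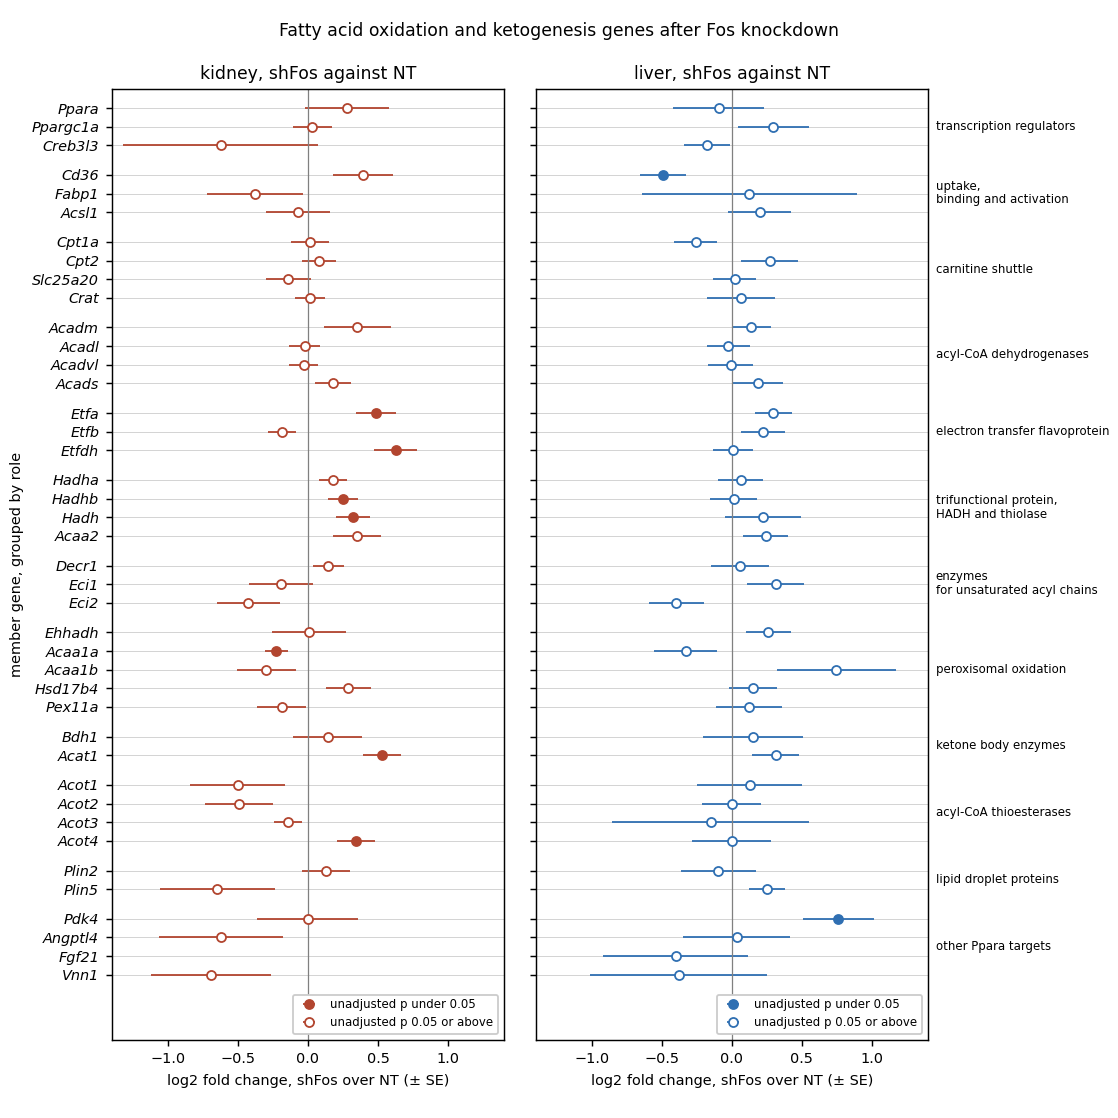
Log2 fold change of shFos over NT, with its SE, for each gene ordered by role, in kidney (red, 40 genes) and liver (blue, 41 genes), with 4 libraries a group; filled points have an unadjusted p under 0.05 and open points do not. In the kidney 7 points are filled and in the liver 2 (Cd36 and Pdk4); Fgf21 has no kidney point because it was not tested there.

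The electron transfer flavoprotein system held, with Acat1, the smallest kidney p values. Etfdh, the inner membrane oxidoreductase that hands electrons from the flavoprotein to ubiquinone (mm10 chromosome 3, 79603788 to 79629500), measured 117, 114, 120.2 and 133 CPM in the NT libraries and 131, 198, 219.5 and 197 CPM in the shFos libraries. Replicate 1 of the shFos group lay inside the NT range and the other 3 shFos libraries lay above it, with a log2 fold change of 0.62 ± 0.15 (SE; adjusted p = 0.0660). Etfa, the alpha subunit of the flavoprotein (chromosome 9, 55454508 to 55512243), measured 209, 194, 222 and 213 CPM in NT and 216, 298, 353 and 305 CPM in shFos. Again shFos replicate 1 sat within the NT libraries and the other 3 above all of them, for a log2 fold change of 0.48 ± 0.14 (adjusted p = 0.0729). Etfb, the partner subunit, did not share this pattern, with 452, 493, 421 and 390.4 CPM in NT and 388, 373, 369 and 415 CPM in shFos. Its groups overlapped and its log2 fold change was -0.19 ± 0.10 (adjusted p = 0.241).

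**Figure D2:**
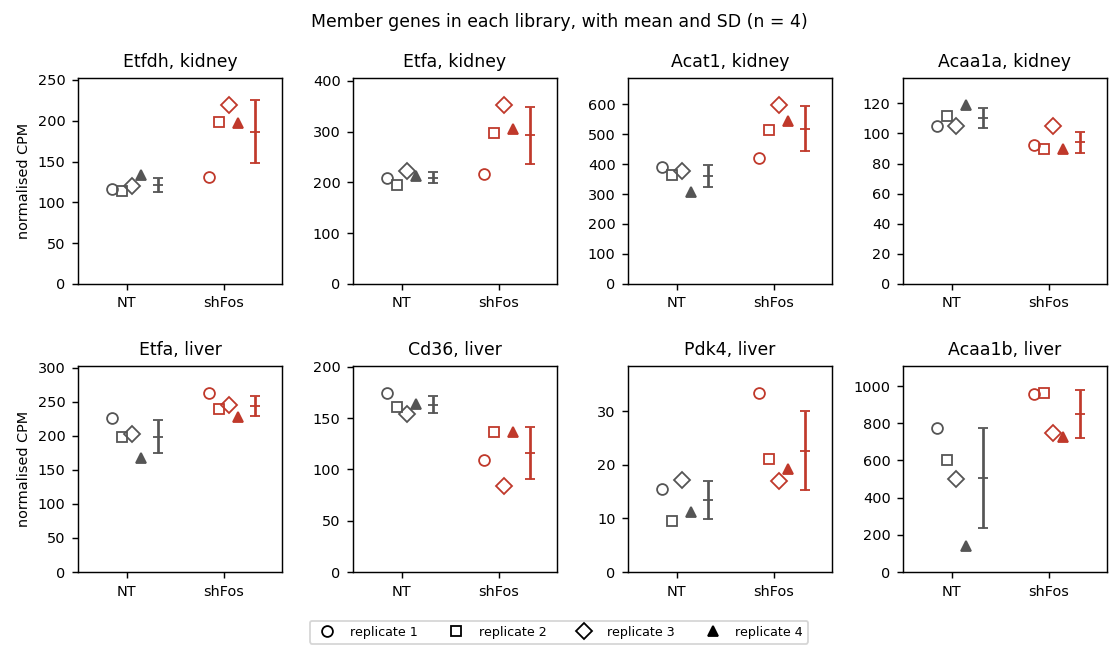
Normalised CPM of 8 gene and tissue pairs in every library, with the mean and SD of each group (n = 4) drawn beside the points; marker shapes give the replicate number, and every axis starts at 0. Kidney Etfdh and Etfa show shFos replicate 1 (131 and 216 CPM) level with the NT libraries, and liver Acaa1b shows NT replicate 4 (142 CPM) far below the others.

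Among the enzymes that complete the spiral and feed ketone bodies, all 4 of the trifunctional protein, HADH and thiolase group and both ketone body enzymes had positive kidney fold changes, 3 of the 6 at an unadjusted p under 0.05 (17.1% of all genes were higher at that threshold). Bdh1 was the exception to this direction without NT replicate 4. Acat1, the mitochondrial acetoacetyl-CoA thiolase (chromosome 9, 53580522 to 53610382), measured 389.6, 363, 379 and 308 CPM in NT and 419, 513, 598 and 546 CPM in shFos. Every shFos library lay above every NT library, with NT replicate 4 the lowest of the 8, and the log2 fold change was 0.53 ± 0.13 (adjusted p = 0.0660). Hadh, the dehydrogenase of medium and short hydroxyacyl-CoA, measured 453, 401, 404 and 372 CPM in NT and 416, 514, 588 and 517 CPM in shFos. Its groups overlapped through shFos replicate 1, and the log2 fold change was 0.32 ± 0.12 (adjusted p = 0.117). Hadhb, the thiolase subunit of the trifunctional protein, measured 259, 224, 223 and 230.1 CPM in NT and 240.3, 322, 282 and 269 CPM in shFos, with shFos replicate 1 below NT replicate 1. Its log2 fold change of 0.25 ± 0.11 (adjusted p = 0.150) fell to 0.03 once gene GC content and length were corrected for, with adjusted p values of 0.0739 to 0.847 over its alternatives. Acaa2, the mitochondrial 3-ketoacyl-CoA thiolase, measured 229, 210.4, 216 and 249 CPM in NT and 193, 293, 365 and 300.1 CPM in shFos. Replicate 1 of shFos was the lowest of the 8 libraries and the other 3 shFos libraries the highest, with a log2 fold change of 0.35 ± 0.17 (adjusted p = 0.199). The remaining pair, Hadha and the ketone body dehydrogenase Bdh1, had log2 fold changes of 0.18 and 0.14, or 0.20 and -0.03 without NT replicate 4.

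Earlier steps of the pathway held no gene at an unadjusted p under 0.05 in the kidney, against 31.9% of all genes. Their log2 fold changes ran from -0.38 for Fabp1 to 0.39 for Cd36. Cpt1a, the carnitine palmitoyltransferase of the outer membrane that gates entry of long chains, measured 331, 378, 329 and 460.1 CPM in NT and 329, 369.7, 422 and 389.7 CPM in shFos. The groups overlapped throughout, NT replicate 4 was the highest library, and the log2 fold change of 0.01 ± 0.13 (adjusted p = 0.960) changed sign with the normalisation and was 0.13 without that library. The other 3 carnitine shuttle genes Cpt2, Slc25a20 and Crat ranged from -0.14 to 0.08 on the log2 scale, and Slc25a20, the lowest of them, turned to 0.02 without NT replicate 4. The acyl-CoA dehydrogenases for long, very long, medium and short chains gave log2 fold changes of -0.02 for Acadl, -0.03 for Acadvl, 0.35 for Acadm and 0.18 for Acads, and none had an unadjusted p under 0.05. Acadl and Acadvl turned to 0.04 and 0.04, and Acads was 0.08, without NT replicate 4. Acadm spanned 808 to 1998 CPM over the shFos libraries alone. The fatty acid transporter Cd36 and the binding protein Fabp1 gave 0.39 and -0.38, and the acyl-CoA synthetase Acsl1 gave -0.07. Without NT replicate 4 the values of Fabp1 and Acsl1 turned to 0.03 and 0.23, and Cd36 was 0.43.

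Among the enzymes of unsaturated chains and of the peroxisome, 5 of 8 kidney fold changes were negative, and 3 of 8 without NT replicate 4. Eci2, an enoyl-CoA isomerase that shifts double bonds, measured 89.9, 103, 90.5 and 185 CPM in NT and 80.9, 86.9, 90.6 and 90.5 CPM in shFos. NT replicate 4 lay far above the other 7 libraries, which overlapped, and the log2 fold change was -0.43 ± 0.22 with that library (adjusted p = 0.221) and -0.11 ± 0.085 without it. Acaa1a, a peroxisomal 3-ketoacyl-CoA thiolase, measured 105, 112, 105 and 119 CPM in NT and 92.2, 89.6, 105 and 89.9 CPM in shFos, so that only shFos replicate 3 reached the NT range. The log2 fold change was -0.23 ± 0.083 (adjusted p = 0.104), and -0.10 after correction for GC content and length, with adjusted p values of 0.0590 to 0.542 over its alternatives. The other peroxisomal genes Acaa1b, Pex11a, Ehhadh and Hsd17b4 gave log2 fold changes of -0.30, -0.19, 0.01 and 0.29, or -0.17, 0.01, 0.37 and 0.41 without NT replicate 4. Decr1, the dienoyl-CoA reductase, gave 0.15, and the isomerase Eci1 gave -0.19, which turned to 0.12 without that library.

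Counts of Acaa1a and Acaa1b, and of the neighbouring thioesterase genes, are uncertain because their transcripts share long stretches. Over the coding sequence, Acaa1a and Acaa1b were 96.55% identical, and 21.6% of the 100-base windows of the Acaa1a transcript occurred unchanged in Acaa1b. Acot1 and Acot2 were 85.61% identical, with 16.5% of the windows of Acot1 found in Acot2. The stretches below, from the mm10 genome with the GENCODE M21 annotation, are 60 coding bases where each pair differed most. The bases that differ within a pair are in capitals.
Acaa1a (chr9:119341912-119342775, + strand, across coding exons 2 and 3 of 12, coding bases 259 to 318): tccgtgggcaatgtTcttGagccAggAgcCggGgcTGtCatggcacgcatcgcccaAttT
Acaa1b (chr9:119155750-119156597, - strand, across coding exons 2 and 3 of 12, coding bases 259 to 318): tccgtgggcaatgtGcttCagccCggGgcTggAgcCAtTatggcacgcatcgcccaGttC
Acot1 (chr12:84016942-84017001, + strand, exon 3 of 3, coding bases 823 to 882): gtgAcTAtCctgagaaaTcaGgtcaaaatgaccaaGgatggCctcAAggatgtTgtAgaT
Acot2 (chr12:83992664-83992723, + strand, exon 3 of 3, coding bases 946 to 1005): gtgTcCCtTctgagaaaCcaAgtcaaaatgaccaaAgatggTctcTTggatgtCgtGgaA
The thiolase pair differs here at 11 of 60 bases and the thioesterase pair at 13 of 60. Acot2, the mitochondrial thioesterase of the pair, measured 34.6, 58.5, 32.7 and 72.3 CPM in NT and 32.9, 37.7, 36.8 and 33.6 CPM in shFos. NT replicates 2 and 4 were high and NT replicates 1 and 3 lay at the level of the shFos libraries, and the log2 fold change of -0.49 ± 0.24 (adjusted p = 0.199) became -0.25 ± 0.19 without NT replicate 4. Acot4, a peroxisomal thioesterase, measured 54.2, 49.0, 49.0 and 48.7 CPM in NT and 46.5, 64.3, 74.2 and 69.3 CPM in shFos, with shFos replicate 1 the lowest library and the other 3 shFos libraries the highest. Its log2 fold change was 0.34 ± 0.14 (adjusted p = 0.126), and 0.17 after correction for GC content and length. The adjusted p of Acot4 ran from 0.00542 to 0.403 over its alternatives. The cytosolic Acot1 and the peroxisomal Acot3 gave -0.50 and -0.14, and 0.02 and -0.21 without NT replicate 4, in which Acot1 stood at 264 CPM.

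None of the regulators, lipid droplet genes or remaining Ppara targets had an unadjusted p under 0.05 in the kidney. Ppara measured 87.1, 98.9, 90.9 and 189 CPM in NT and 92.3, 141, 199 and 132 CPM in shFos. Replicate 4 was the highest NT library and lay within the shFos range, and the log2 fold change was 0.28 ± 0.30 (adjusted p = 0.546) with it and 0.61 ± 0.22 (adjusted p = 0.118) without it, over a range of adjusted p from 0.00737 to 0.903 among all alternatives. Ppargc1a, a coactivator of oxidative metabolism, measured 117, 105, 102 and 147 CPM in NT and 102, 125, 137 and 117 CPM in shFos. Its groups overlapped, NT replicate 4 was the highest of the 8 libraries, and the log2 fold change of 0.03 ± 0.14 (adjusted p = 0.892) turned negative under upper-quartile scaling and under the GC and length correction, and was 0.16 without that library. Creb3l3, a transcription factor of the liver, stood at 0.651 to 2.19 CPM in the NT kidneys and 0.307 to 2.36 CPM in the shFos kidneys, from 4 to 34 counts per library. The groups overlapped, and the log2 fold change was -0.62 ± 0.70, or -0.31 without NT replicate 4. The lipid droplet coats Plin2 and Plin5 gave log2 fold changes of 0.13 and -0.65, Pdk4 (a kinase that shuts off pyruvate dehydrogenase) gave 0.00 (0.09 without NT replicate 4), Angptl4 (a lipoprotein lipase inhibitor) gave -0.62 and Vnn1 (a pantetheinase) gave -0.69. The negative values of Plin5, Angptl4 and Vnn1 became -0.16, -0.20 and -0.03 without NT replicate 4.

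Kidney NT replicate 4 was the highest NT library in 26 of the 40 tested genes, against 37% of all genes. In 7 of the 40 it exceeded the mean of the other 3 NT libraries more than 2-fold, against 1.81% of all genes. It held 409 CPM of Vnn1 where the other NT kidneys held 104 to 144, 264 CPM of Acot1 against 88.6 to 106, and 1339 CPM of Ehhadh against 595 to 661. The same library held 218 CPM of the glucocorticoid-induced gene Fkbp5 against 25.5 to 32.2 CPM, 2821 CPM of the Ppara target Cyp4a14 against 409 to 611, a proximal tubule marker sum of 5063 CPM against 8735 to 10429.9 CPM, and a clock gene sum of 1159.6 CPM against 807 to 841. The part of these in the results was not tested. Without that library 0 of 40 genes were called, against 0.02% of all genes, and 8 had an unadjusted p under 0.05, against 30.9%. The median log2 fold change was then 0.08, with 29 of 40 above zero.

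The other kidney library that moved the counts was shFos replicate 1, the lowest shFos library in 28 of 40 genes, against 38% of all genes. Without it, edgeR called 6 genes, Acaa2, Acat1, Acot4, Etfa, Etfdh and Hadh, all higher in shFos, while 27.5% of all genes were called. With both it and NT replicate 4 left out, a choice made after seeing the data, 12 of 40 genes were called, 11 higher and Etfb lower, against 34.9% of all genes. In a single fit of all 16 libraries Etfdh (adjusted p = 0.0332) and Etfa (adjusted p = 0.0474) were called, against 6.45% of all genes. None of these shares exceeded the share over all genes, and over all fits the adjusted p ran from 0.000220 to 0.192 for Etfdh and from 0.00235 to 0.194 for Etfa.

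**Figure D3:**
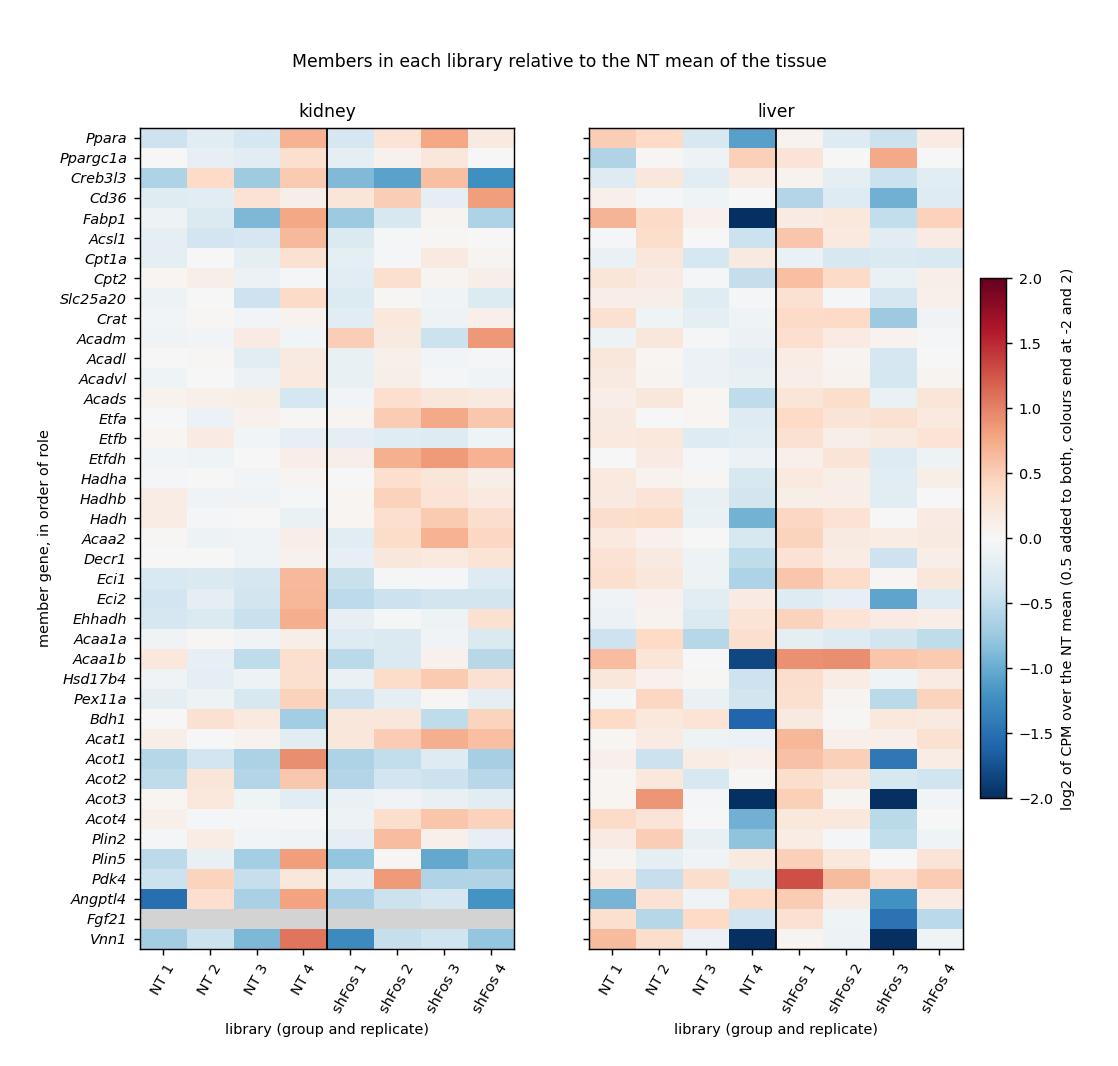
Log2 of CPM over the NT mean of the tissue for each gene (rows, in order of role) and library (columns, NT left and shFos right of the line), with 0.5 CPM added to both and colours ending at -2 and 2; grey marks Fgf21 in the kidney, which had at most 2 counts. The red column of kidney NT replicate 4 and the blue column of liver NT replicate 4 are the libraries that stood apart, and kidney shFos replicate 1 is the lowest shFos kidney in 28 rows.

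Values of other gene lists stand here beside the kidney groups, and are to be read against the 17.1% of all genes that were higher, the 14.8% that were lower and the 19.7% that DESeq2 called. Of 17 circadian clock genes, 4 were higher and 9 lower at that same unadjusted threshold and DESeq2 called 11. Summed clock levels were 807 to 1159.6 CPM in NT and 689.9 to 779.7 CPM in shFos, which did not overlap. Of 7 endothelial markers, 6 were higher at an unadjusted p under 0.05 (sum 299 to 390.0 CPM in NT, 457 to 519 in shFos), as were 5 of 5 podocyte markers (331 to 494 in NT, 427 to 868 in shFos). Of 8 proximal tubule markers, the cell type that burns most fat in the kidney, 3 were higher and all 8 had positive fold changes, with a sum of 5063 to 10429.9 CPM in NT and 10215 to 13807 in shFos. Of 12 fasting and glucocorticoid genes 3 were higher (2196 to 3733 and 3243 to 4726 CPM). Of 9 distal nephron markers 1 was lower, and of 8 hepatocyte markers, 7 of them tested, 1 was higher and 2 lower. Adipocyte markers (0 of 9, sum 244 to 442 CPM in NT and 146 to 1148 in shFos) and macrophage markers (0 of the 6 tested, 328 to 915 and 484 to 659.8) had none at that threshold. All 9 adipocyte markers had positive fold changes, and of the 6 macrophage markers 2 were positive and 4 negative. The part of these lists in the results for Etfdh, Etfa and Acat1 was not tested.

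In the aged liver, Fos itself did not differ by the test, at 17 to 71 counts per library. The paper reports by RT-qPCR, a separate RNA measurement, that Fos was lower in both kidney and liver of the shFos group. The genes with the smallest p of shFos against NT were Pdk4 and Etfa, with higher means in shFos, and Cd36, with a lower mean. No gene of the 41 was called by edgeR, against 0% of the 13144 genes tested, and DESeq2 called none, against 0.306%. At an unadjusted p under 0.05 there were 2 of 41, Pdk4 higher (3.58% of all genes) and Cd36 lower (3.16%), against 6.74% in either direction. The groups did not overlap in Etfa, which was higher (2.79% of all genes), and in Cd36, which was lower (1.52%). The median log2 fold change was 0.07 against -0.01 over all genes, with 27 genes above zero and 14 below.

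Pdk4, which spares glucose when fat is burned (chromosome 6, 5483351 to 5496309), measured 15.5, 9.58, 17.1 and 11.2 CPM in the NT livers and 33.4, 21.0, 17.0 and 19.2 CPM in the shFos livers. The shFos replicate 1 library was the highest, shFos replicate 3 overlapped with NT replicate 3, and the log2 fold change was 0.76 ± 0.25 (SE; adjusted p = 0.714). Cd36, the fatty acid transporter (chromosome 5, 17781690 to 17888801), measured 174, 161, 154 and 164 CPM in NT and 109, 136, 83.6 and 136 CPM in shFos. All 4 shFos livers lay below all 4 NT livers, with shFos replicate 3 the lowest, and the log2 fold change was -0.49 ± 0.16 (adjusted p = 0.714). Etfa measured 226, 198, 203 and 167 CPM in NT and 263, 239, 246 and 228 CPM in shFos. All 4 shFos livers lay above all 4 NT livers, though the lowest shFos library was within 2 CPM of the highest NT library, with a log2 fold change of 0.30 ± 0.13 (adjusted p = 0.734), and 0.21 without NT replicate 4, which was the lowest library.

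The thiolase genes differed in direction in the liver. Acaa1a gave -0.33 (-0.21 without NT replicate 4) and Hadhb 0.01 (-0.10), while the other 3 had positive fold changes. Acat1 measured 302, 329, 273 and 272 CPM in NT and 466, 316, 316 and 362 CPM in shFos, where shFos replicate 1 was the highest and shFos replicates 2 and 3 lay below NT replicate 2. Its log2 fold change was 0.31 ± 0.17 (adjusted p = 0.737). Acaa2 measured 545, 508, 474 and 385 CPM in NT and 652, 539, 531 and 541 CPM in shFos, with NT replicate 4 the lowest, NT replicate 1 among the shFos libraries and a log2 fold change of 0.24 ± 0.16 (adjusted p = 0.752), or 0.14 without that library. Acaa1b, the second peroxisomal thiolase, measured 777, 601, 502 and 142 CPM in NT and 958, 963, 745 and 727 CPM in shFos. NT replicate 4 lay far below every other library, NT replicate 1 overlapped with shFos, and the log2 fold change was 0.75 ± 0.42 (adjusted p = 0.742) with it and 0.43 without it. Ehhadh, the bifunctional enzyme of peroxisomes, measured 289.7, 328, 255 and 378 CPM in NT and 430.0, 377, 349 and 343 CPM in shFos. Here NT replicate 4 was the highest NT library and overlapped with shFos, for a log2 fold change of 0.26 ± 0.16 (adjusted p = 0.746). The other peroxisomal genes Hsd17b4 and Pex11a gave 0.15 and 0.12, and 0.03 and 0.01 without NT replicate 4. In the mitochondria Hadha, Hadh and Bdh1 gave 0.06, 0.22 and 0.15, and -0.04, 0.00 and -0.15 without it.

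Genes of carnitine entry, unsaturated chains and lipid droplets did not move in common in the liver. Cpt1a measured 204, 261, 175 and 253 CPM in NT and 204, 179, 183 and 180.2 CPM in shFos. The shFos livers were close to each other, NT replicate 3 lay below them and NT replicates 2 and 4 above them, and the log2 fold change was -0.26 ± 0.15 (adjusted p = 0.742). Eci2 measured 151, 168, 138 and 179 CPM in NT and 133, 141, 75.9 and 133 CPM in shFos, with shFos replicate 3 far below the rest. The log2 fold change of -0.40 ± 0.20 (adjusted p = 0.734) was -0.23 without that library. Plin5, a lipid droplet coat that tethers droplets to mitochondria, measured 34.2, 28.7, 31.0 and 37.0 CPM in NT and 45.8, 38.0, 32.9 and 39.3 CPM in shFos, overlapping through NT replicates 1 and 4 and shFos replicate 3, with a log2 fold change of 0.25 ± 0.13 (adjusted p = 0.734). The other genes of these 3 roles ranged from -0.10 for Plin2 to 0.31 for Eci1, and Plin2 and Eci1 were at -0.30 and 0.14 without NT replicate 4. Cpt2 and Decr1 gave 0.27 and 0.06, and 0.13 and -0.09 without that library. The 4 acyl-CoA dehydrogenases ranged from -0.02 for Acadl to 0.19 for Acads. Without NT replicate 4 they ranged from -0.10 to 0.09, with Acads at 0.04. The 4 thioesterases ranged from -0.15 to 0.13, and without NT replicate 4 Acot3 and Acot4 were at -0.51 and -0.23. Leaving out shFos replicate 3 instead put Acot1 and Acot3 at 0.41 and 0.17. Fabp1 gave 0.13 and Acsl1 0.20, and without NT replicate 4 Fabp1 turned to -0.28 and Acsl1 was at 0.07.

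Neither the regulators nor the hormone Fgf21 passed a test in the liver. Ppara measured 192, 180.4, 108 and 63.8 CPM in NT and 144, 114, 101 and 152 CPM in shFos. The NT libraries enclosed the shFos libraries, and the log2 fold change was -0.09 ± 0.32 (adjusted p = 0.954). It was -0.34 without NT replicate 4, the lowest library, and -0.003 without shFos replicate 3. Ppargc1a measured 7.85, 12.3, 11.2 and 17.0 CPM in NT and 14.6, 12.1, 20.7 and 12.1 CPM in shFos, with NT replicate 1 lowest and shFos replicate 3 highest. Its log2 fold change was 0.29 ± 0.25 (adjusted p = 0.792), or 0.49 without NT replicate 4 and 0.09 without shFos replicate 3. Creb3l3, Angptl4 and Vnn1 gave -0.18, 0.03 and -0.38, and -0.13, 0.18 and -0.71 without NT replicate 4. They were at -0.11, 0.28 and -0.05 without shFos replicate 3. Fgf21, a hormone released by the fasted liver, measured 2.44, 1.10, 2.60 and 1.32 CPM in NT and 2.41, 1.72, 0.352 and 1.14 CPM in shFos. Its groups overlapped and shFos replicate 3 was the lowest. The log2 fold change was -0.40 ± 0.52 (adjusted p = 0.853), or -0.55 without NT replicate 4 and -0.09 without shFos replicate 3. In the kidney Fgf21 had 0, 1, 2 and 0 counts in the NT libraries and 2, 1, 0 and 0 in the shFos libraries, at or under the floor of 3 counts, which is 0.164 to 0.211 CPM over the 16 libraries. Differences in kidney Fgf21 were not detectable at this depth.

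Liver NT replicate 4 was the lowest NT library in 25 of 41 genes, against 31.9% of all genes, and lay more than 2-fold below the mean of the other 3 in 8 of 41, against 6.67%. Its Fabp1 level was 108 CPM where the other NT livers held 2450 to 3698 CPM, 28.3-fold below their mean. Acot3 was 7.97-fold, Vnn1 5.05-fold, Acaa1b 4.41-fold and Bdh1 3.71-fold below. The same library held 27345 CPM of Alb against 104128 to 170014 CPM, and 146 CPM of Fkbp5 against 43.3 to 53.2 CPM. Without it 0 of 41 genes were called, against 0% of all genes, 5 had an unadjusted p under 0.05, against 6.44%, and the median log2 fold change was 0.00. In the shFos group, replicate 3 was the lowest in 31 of 41 genes (28.1% of all genes) and replicate 1 the highest in 28 of 41 (23.3%). Without shFos replicate 3 the median log2 fold change was 0.17, against -0.02 over all genes, with 33 of 41 above zero. Without shFos replicate 1 it was -0.02, against -0.01 over all genes, with 20 of 41 above zero. Of the 8 macrophage markers 0 had an unadjusted p under 0.05 (sum 318 to 1635 CPM in NT and 416 to 752 in shFos), while 2 of 8 hepatocyte markers were higher (49438 to 194117 and 116871 to 170099). Of 17 clock genes 3 were lower (479 to 613 and 419.7 to 553 CPM), of 12 fasting and glucocorticoid genes 1 was higher and 1 lower (5425 to 6030 and 4886 to 7682), and of 7 endothelial markers 1 was higher (150.3 to 192 and 158 to 199). Their part in the results was not tested.

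The difference of the shFos effect between liver and kidney was tested as an interaction over all 16 libraries and 15421 genes. None of the 41 genes was called, against 0% of all genes, and 3 had an unadjusted p under 0.05, against 16.1% of all genes. The largest was Cd36, at 128, 129, 185 and 163 CPM in kidney NT and 179, 212, 132 and 269 CPM in kidney shFos. Its kidney groups overlapped through shFos replicates 1 and 3, its kidney fold change was 0.39 and its liver fold change -0.49, and the difference was -0.86 ± 0.29 on the log2 scale (adjusted p = 0.199). Etfdh measured 173, 196, 169 and 161 CPM in liver NT and 187, 208, 145 and 162 CPM in liver shFos, where the groups overlapped fully. Its liver fold change of 0.01 set against the kidney value gave a difference of -0.60 ± 0.21 (adjusted p = 0.208). Without NT replicate 4 that liver fold change was -0.04. Etfb measured 322, 326, 236 and 239.7 CPM in liver NT and 349, 304, 319 and 339 CPM in liver shFos, with NT replicates 3 and 4 below the other 6 libraries. The difference for Etfb was 0.42 ± 0.19 (adjusted p = 0.277), and 0.07 after correction for GC content and length, with adjusted p values of 0.161 to 0.906 over its alternatives.

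Liver and kidney of the NT mice differed in most of the 41 genes. On a scaling across the 8 NT libraries of both tissues, 32 of 41 genes were called by edgeR, 26 higher in the liver (27.7% of all 14875 genes) and 6 higher in the kidney (32.3% of all genes). The median log2 difference, liver minus kidney, was 0.83 over the 41 genes and -0.04 over all genes. Upper-quartile scaling moved the median of all genes to -0.21 and that of the 41 to 0.66. Without NT replicate 4 of either tissue, an alternative added after seeing the data, 31 were higher in the liver (29.7% of all genes) and 5 in the kidney (35.2%). The fit had no block. Same-numbered NT kidneys and livers deviated together, and with the replicate number as a block 29 genes were called, without Acaa1b, Crat and Ppara.

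The genes higher in the liver came from every role, with 4 of 5 peroxisomal genes, 3 of 4 genes for the end of the spiral and both lipid droplet genes. Creb3l3 differed most over all 8 NT libraries, and Fabp1 once NT replicate 4 of both tissues was left out. Creb3l3 measured 0.523, 1.41, 0.469 and 1.57 CPM in the NT kidneys and 239, 342, 255 and 331 CPM in the NT livers. Every liver lay above every kidney, and the log2 difference was 8.19 ± 0.43 (adjusted p = 6.37e-07), or 8.44 without NT replicate 4 of either tissue. Fabp1, the abundant fatty acid binding protein of hepatocytes (chromosome 6, 71199827 to 71205023), measured 12.9, 11.3, 7.28 and 24.0 CPM in kidney and 5144, 4309.8, 3542 and 155 CPM in liver. Liver replicate 4 was far below the other livers but still above every kidney, with a log2 difference of 7.89 ± 1.1 (adjusted p = 0.000236) with it and 8.69 without NT replicate 4 of either tissue. Plin5 measured 2.71, 3.59, 2.39 and 7.45 CPM in kidney and 47.5, 41.1, 44.8 and 53.2 CPM in liver, again without overlap, for 3.53 ± 0.35 (adjusted p = 2.75e-05). Fgf21 measured 0, 0.0485, 0.0939 and 0 CPM in kidney and 3.40, 1.57, 3.76 and 1.90 CPM in liver, from 3 counts in the 4 kidneys and 131 in the 4 livers. The ratio of read rates was 74.7, with an exact 95% interval of 25.0 to 367 that covers counting error only.

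Of the 6 genes higher in the kidney, Ppargc1a differed most, at 84.7, 75.4, 73.5 and 105 CPM in kidney and 10.9, 17.6, 16.3 and 24.4 CPM in liver. Kidney and liver libraries did not overlap, and the log2 difference, liver minus kidney, was -2.29 ± 0.24 (adjusted p = 3.75e-05). Acot1 measured 67.0, 76.2, 63.8 and 189 CPM in kidney and 34.9, 24.6, 37.5 and 36.2 CPM in liver, with kidney replicate 4 above the other kidneys, for -1.57 ± 0.36 (adjusted p = 0.00457), or -1.09 without NT replicate 4 of either tissue. Acot2 measured 25.0, 42.1, 23.6 and 51.8 CPM in kidney and 14.2, 16.5, 11.3 and 14.5 CPM in liver, also without overlap, for -1.33 ± 0.27 (adjusted p = 0.00217); reads of this pair may be shared, as above. Acadm, the medium-chain dehydrogenase, measured 753, 756, 879 and 758 CPM in kidney and 302, 389, 328 and 308 CPM in liver. All kidneys lay above all livers and close to each other, for -1.24 ± 0.16 (adjusted p = 0.000154). Pdk4 and Crat were the other 2, at -1.03 and -0.31, and Crat was not called without NT replicate 4 of either tissue (-0.26). The 9 genes not called were Acsl1, Cpt1a, Acadl, Etfb, Hadhb, Eci1, Ehhadh, Bdh1 and Vnn1, and their log2 differences ran from -0.38 to 0.61.

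Levels of different genes were compared per kilobase of annotated exon. In the NT kidney the highest were Etfb at 272 ± 27.6 CPM per kb (SD, n = 4), Acadm at 201 ± 15.7, Ehhadh at 195 ± 85.1 and Acaa1b at 139 ± 34.8. The first of these exceeded the next by more than either SD, while Acadm and Ehhadh did not differ beyond their spread. In the NT liver the order was Fabp1 at 5945 ± 3957, Acaa2 at 449 ± 59.5, Acaa1b at 366 ± 190 and Etfb at 344 ± 56.9 CPM per kb. Below Fabp1, these liver neighbours did not differ beyond their spread. NT replicate 4 widened several of these SDs. In that liver Fabp1 was at 155 CPM (3542 to 5144 in the other livers) over 0.553 kb, lower per kb than Acaa2 at 553 CPM over 1.516 kb. Liver Acaa1b was at 204 CPM there (726 to 1081 in the others), and kidney Ehhadh at 961 CPM (429 to 476). The lowest in the kidney was Fgf21 at 0.0374 CPM per kb. In the liver Ppargc1a at 2.63 ± 0.844 and Fgf21 at 2.79 ± 1.14 CPM per kb were the lowest and did not differ beyond their spread.

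**Figure D4:**
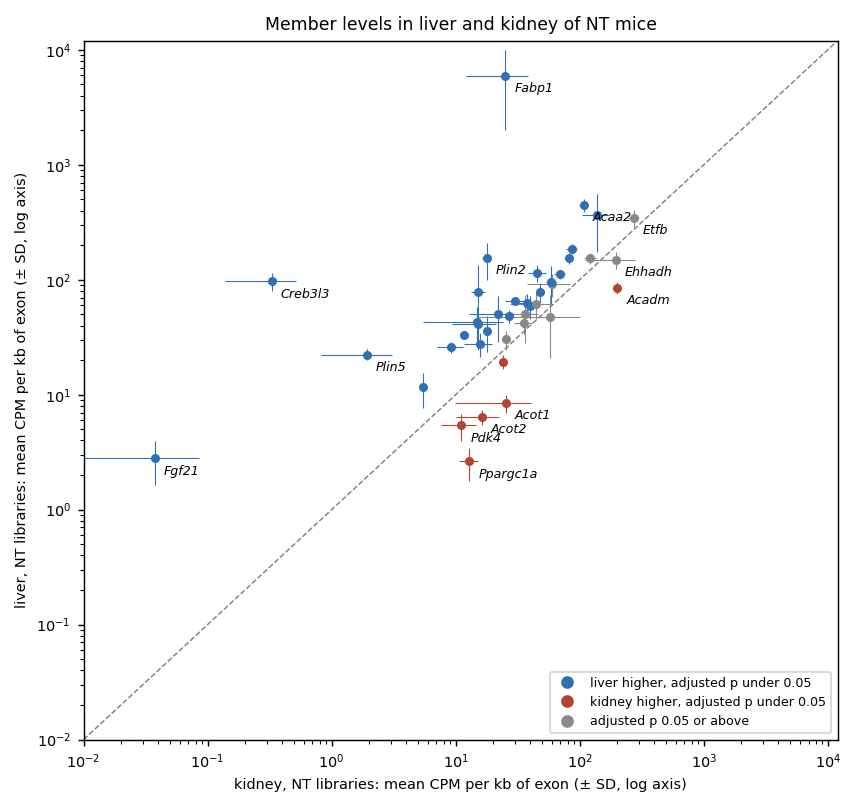
Mean level of each gene in the NT livers against the NT kidneys, in CPM per kb of exon on log axes with SD bars (n = 4 each; lower bars end at the axis where the SD exceeds the mean); the dashed line marks equal levels. Blue points (26) were higher in liver, red points (6) higher in kidney and grey points (9) passed neither way; Creb3l3 and Fabp1 lie farthest above the line and Ppargc1a farthest below it.

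Promoter sequences were read for 34 of the 41 genes from the RefSeq table on GRCm38.p6, from 250 bases before to 50 after the start of transcription. Ppara acts on direct repeats of a half-site spaced by a single base, searched as AGGNCA, any base and AGGNCA again on both strands. For AP-1, the factor to which Fos belongs, the letters TGANTCA were searched on both strands, a loose form that accepts any middle base. The repeat occurred in 1 of 34 genes (2.94%), against 0.451% of 27025 genes, and that gene was Fabp1, shown because it had the highest level per kilobase in the liver. The capitals mark the repeat, which reads on the opposite strand, in the stretch from 127 bases to 1 base before the RefSeq start.
Fabp1 (chr6:71199752-71199878, + strand): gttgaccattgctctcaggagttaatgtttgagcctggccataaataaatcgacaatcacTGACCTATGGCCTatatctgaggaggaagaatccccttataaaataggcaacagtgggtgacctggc
The letters TGANTCA occurred in 4 of 34 genes (11.8%), against 8.97% of all genes. They occurred in 4 of the 43 other pathway genes with a promoter (9.3%), where the repeat occurred in 0. Acot4 matched as TGATTCA, with T or A in the middle by strand, while Creb3l3, Acadvl and Plin5 matched with C or G there. Shares for C or G alone were not counted. The matches are shown in capitals because Fos was the gene knocked down, and a match is a description of letters and not a site of binding.
Creb3l3 (chr10:81098911-81098937, - strand, 65 to 39 bases before the start): cggtctgctgTGACTCAgaaggaggtg
Acadvl (chr11:70015396-70015422, - strand, 7 to 33 bases after the start): ttgtggagcaTGAGTCAgggcccagac
Acot4 (chr12:84038258-84038284, + strand, 121 to 95 bases before the start): tactttgcctTGATTCAttcacttggt
Plin5 (chr17:56117543-56117569, - strand, from 21 bases before the start to base 6 after it): gacggagggcTGACTCAggtgggagcg
The 4 genes did not move in common, with kidney log2 fold changes of -0.62 for Creb3l3, -0.03 for Acadvl, 0.34 for Acot4 and -0.65 for Plin5, and liver values of -0.18, -0.01, 0.00 and 0.25. The kidney value of Creb3l3 rests on 4 to 34 counts per library.

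A list of 59 other genes of the same pathways gave the wider context. In the kidney 58 were tested and none was called by edgeR, while 11 were higher (17.1% of all genes) and 4 lower (14.8%) at an unadjusted p under 0.05 and DESeq2 called 11 (19.7%), so that none of these shares stood well above that of all genes, with a median log2 fold change of 0.13. The smallest p values were those of Ppargc1b, a coactivator related to Ppargc1a, at 25.0 to 30.3 CPM in NT and 15.2 to 19.7 in shFos (log2 fold change -0.64 ± 0.11), the fatty acid transporter Slc27a1 at 145 to 237 and 61.9 to 128 CPM (-1.07 ± 0.26), and the thioesterase Acot6 at 4.65 to 5.39 and 6.43 to 10.2 CPM (0.69 ± 0.18). In all 3 the groups did not overlap, and the adjusted p was 0.0660 for each. In the liver 55 were tested, none was called by edgeR or DESeq2, and 3 were higher (3.58% of all genes) and 0 lower (3.16%) at an unadjusted p under 0.05. These were the peroxisomal hydrolase Nudt7 at 29.1 to 49.1 CPM in NT and 44.1 to 78.2 in shFos (0.69 ± 0.20, adjusted p = 0.714), the thioesterase Acot13 at 32.7 to 60.4 and 59.8 to 79.1 CPM (0.52 ± 0.18, adjusted p = 0.714), and the hydroxybutyrate dehydrogenase Bdh2 at 5.40 to 13.6 and 13.9 to 20.7 CPM (0.62 ± 0.27, adjusted p = 0.734).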

How the data were processed

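Total RNA of 16 libraries was sequenced as paired reads, and per the labels the authors trimmed them with Trimmomatic 0.39, aligned them to mm10 with HISAT2 2.2.1 and made counts per gene with HTSeq 0.12.4, a single deposited count file for each library. Counting ignored strand, so overlapping and antisense genes cannot be told apart. The version of the gene annotation is not given in the sources used here. The 5 summary lines of each file, which name no gene, were left out. Reads on no gene were 13.4% to 26.7% and ambiguous reads 1.84% to 2.64% of the counted reads plus the summary lines.

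Each tissue was fitted on its own with edgeR 4.0.16 (R 4.3.3): genes with few reads removed by filterByExpr, TMM scaling, a robust quasi-likelihood test of shFos against NT on the deposited counts, and Benjamini-Hochberg adjustment over all genes tested, with a threshold of 0.05. The SE of a log2 fold change was its size divided by the square root of F. The difference between tissues was an interaction term over the 16 libraries, and liver against kidney used the NT libraries with a scaling of their own. CPM are the scaled values of these fits. Gene positions and lengths came from GENCODE M21, which matched 98.2% of gene names.

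Alternatives were DESeq2 1.42.0, upper-quartile scaling, no filter on low counts, the replicate number as a block, a GC and length correction, a newer dispersion estimate, a single fit of 16 libraries, the shFos libraries for the tissue comparison, and leaving out each library. Those that left out NT replicate 4 of both tissues, or kidney NT replicate 4 with shFos replicate 1, were chosen after seeing the data. Scripts were tested on simulated data. With 200 genes changed 2-fold, edgeR recovered 57.5% of them in the kidney and 39% in the liver, so changes of that size can be missed. DESeq2 recovered 145 in the kidney and also called 36 unchanged genes. With no gene changed, edgeR called 0 and DESeq2 14 in the kidney. The 41 genes and all lists were chosen with earlier results of these data known. Values in every library were given for the 10 genes with the smallest p of shFos against NT in each tissue, the 3 at the top of the interaction test, the 4 with the largest liver and kidney differences in each direction, Ppara, Ppargc1a, Cpt1a and Fgf21, and, as ranges, the 3 other pathway genes with the smallest p in each tissue. The marker, clock and fasting lists were counted in the same fits. Same-numbered NT kidney and liver libraries deviated together from their group means (correlations across genes 0.153, 0.378, 0.393 and 0.357). Replicate 1 of the kidney correlated best with replicate 3 of the liver, so the check does not settle whether same-numbered libraries share a mouse. The tissue fit as designed had no block, and the calls of the blocked fit are given beside its own. The interaction fit also had no block and treated kidney and liver libraries as independent. Same-numbered NT and shFos libraries did not deviate together (correlations -0.27 to 0.10), nor did all same-numbered shFos kidneys and livers (0.028 to 0.165). Intervals and floors cover counting error only.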

Additional observations from a re-analysis of the deposited data

Results flagged for a closer look

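Within a group of 4 libraries, the highest or lowest library was compared with its nearest neighbour by Dixon's ratio, which chance alone passes in about 1 in 20 groups, here 8.1 of the 162 groups examined. The ratio passed in 19 groups, 8 of them through kidney NT replicate 4 and 1 through liver NT replicate 4. No cause was tested for any of them.

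In kidney NT replicate 4, Ppara measured 189 CPM where the other NT kidneys measured 87.1 to 98.9, Acsl1 1372 where they measured 673 to 762, Eci1 206 (103 to 107), Eci2 185 (89.9 to 103), Ehhadh 1339 (595 to 661), Acot1 264 (88.6 to 106) and Vnn1 409 (104 to 144). Acads was the exception in direction, at 92.9 CPM in that library against 125 to 129. In other kidney libraries, Acadm stood out at 1219 CPM in NT replicate 3 (1042 to 1056 in the others), Acot4 at 54.2 CPM in NT replicate 1 (48.7 to 49.0), Plin2 at 96.0 CPM in NT replicate 2 (82.4 to 84.5), Creb3l3 at 2.36 CPM in shFos replicate 3 (0.307 to 0.514) and Acsl1 at 714 CPM in shFos replicate 1 (860.5 to 889.7).

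In the liver, Bdh1 measured 45.7 CPM in NT replicate 4 against 159.8 to 182 in the other NT livers, and Acot1 17.2 CPM in NT replicate 2 against 25.1 to 26.0. In shFos replicate 1, Cpt1a was at 204 CPM against 179 to 183 and Acaa2 at 652 against 531 to 541. In shFos replicate 3, Eci2 was at 75.9 CPM against 133 to 141 and Vnn1 at 13.3 CPM against 74.4 to 83.0. No gene of the 41 moved one way in every kidney library and the opposite way in every liver library.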

How the results depend on the processing

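Of the counts and medians recomputed under the alternatives, 119 kept their value and 32 moved, and of the values of single genes 512 kept direction and side of the threshold, 19 passed the threshold of 0.05 only under the alternative and 13 turned. In the kidney, genes with an adjusted p under 0.05 numbered 4 with DESeq2, 2 in a single fit of 16 libraries, 12 without NT replicate 4 and shFos replicate 1, and 0 to 6 when a library was left out, with 6 only without shFos replicate 1. Genes with an unadjusted p under 0.05 numbered 3 under the replicate block, 3 in the single fit, 16 without both libraries and 3 to 10 when a library was left out (4 without NT replicate 2, 4 without shFos replicate 2, 3 without shFos replicate 4). Genes without overlap numbered 3 under upper-quartile scaling, 3 under the GC and length correction and 2 to 11 without a library (11 without shFos replicate 1), a count that grows with smaller groups. In the liver, genes with an unadjusted p under 0.05 numbered 4 under the replicate block, 4 in the single fit and 2 to 5 without a library (4 without NT replicate 1, NT replicate 3 or shFos replicate 3, 5 without NT replicate 4), and those without overlap 4 under upper-quartile scaling and 2 to 5 without a library. For the difference between tissues, 5 genes had an unadjusted p under 0.05 with DESeq2 and 5 with upper-quartile scaling. Kidney Ppargc1a turned to -0.025 under upper-quartile scaling and -0.22 under the GC and length correction, and ran from -0.037 to 0.16 without a library, below zero without NT replicate 2, NT replicate 3 or shFos replicate 3. Kidney Cpt1a turned to -0.045 under upper-quartile scaling and ran from -0.044 to 0.13 without a library, below zero without NT replicate 1, NT replicate 3, shFos replicate 3 or shFos replicate 4. Liver Ppara turned to 0.00040 under the replicate block and ran from -0.34 to 0.11 without a library, above zero without NT replicate 1 or NT replicate 2. The cause was not tested. The NT and shFos libraries share only numbers, so the replicate block is no paired test there. In the tissue comparison, genes called numbered 26 to 36 over all alternatives, with 26 without kidney replicate 3 and 36 without liver replicate 4.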
